A study of Mus musculus with 5 samples.

Results

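The 10 genes described here (Apoe, Trem2, Gpnmb, Lpl, Abca1, Fabp4, Fabp5, Cd36, Pltp and Lipa) encode proteins that bind, move or break down lipid, apart from Gpnmb, a glycoprotein of lipid-laden macrophages. The genes are often read out together in macrophages. They were chosen by name, 10 of 41028 gene names in the deposited matrices, and their transcripts were followed in macrophages, endothelial cells, fibroblasts and epithelial tumour cells. By the highest level in each library, the label of macrophage genes held for 4 of them. Apoe, Trem2, Pltp and Lipa were highest in macrophages in all 5 libraries, though Lipa was near level with epithelial cells in stored 10x (ratio 1.03). Fabp4 and Cd36 were highest in endothelial cells and Lpl in fibroblasts in all 5, while Gpnmb, Abca1 and Fabp5 changed their leading class between libraries.

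The cells came from mammary tumours of PyMT mice, which develop these tumours because the mammary epithelium expresses a polyomavirus oncoprotein, the middle T antigen. All 5 libraries came from digested tumours enriched for viable cells. Of these, 2 were fresh tumour digests on the droplet platform 10x Chromium 3' v2 (fresh 10x 1 and 2), and 1 was a digest on the same platform after a cold hold (stored 10x), labelled 24 h in its title and described in the protocol as overnight at 4 ºC until viability by flow cytometry was reduced. The other 2 were run on the microwell platform BD Rhapsody with its whole transcriptome assay: BD 1, labelled fresh, and BD 2, whose title says fresh and whose deposited files are named for 24 h. BD 2 was therefore left out of the platform and storage comparisons. The labels give no strain, age, sex or transgene promoter and do not say whether the libraries came from separate mice, so every p-value measures only the spread between these libraries. The design asks how the platforms compare on fresh tissue and what cold storage does.

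As background, macrophages that take up debris or lipoproteins hydrolyse the lipid in lysosomes, where Lipa, the lysosomal acid lipase, frees cholesterol and fatty acids. Abca1 exports the cholesterol to apolipoproteins such as Apoe, Pltp transfers phospholipid between lipoproteins, and the nuclear receptors LXR-alpha and LXR-beta switch on Abca1, Apoe and Pltp when oxysterols accumulate. Trem2 is a lipid-sensing surface receptor that signals through the adaptor Tyrobp, and Gpnmb is a lysosomal and surface glycoprotein of lipid-laden macrophages. Lpl is a secreted lipase that hydrolyses lipoprotein triglyceride, Cd36 takes up long-chain fatty acids and oxidised lipoproteins, and Fabp4 and Fabp5 carry fatty acids inside the cell. The last 4 are also textbook genes of fat cells, of capillary endothelium or of both.

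In the mouse genome (GRCm38, the assembly behind the mm10 name in the submitters' processing notes, with the GENCODE vM21 annotation) Apoe lies at chr7:19696109-19699188 and Trem2 at chr17:48346401-48354147. Gpnmb lies at chr6:49036546-49070929, Lpl at chr8:68880491-68907448 and Abca1 at chr4:53030787-53159895. Cd36 lies at chr5:17781690-17888801 and Lipa at chr19:34492318-34527474. The related genes Fabp5 (chr3:10012548-10016607) and Fabp4 (chr3:10204088-10208576) are neighbours with 187480 bases between them. Pltp (chr2:164839518-164857711) overlaps Ctsa on the opposite strand, and no label says whether counting used strand, so its values are uncertain to that extent. RefSeq promoter windows (GRCm38.p6) were matched for 7 of the 10 genes. The 250 bases before the start are shown for Apoe and Trem2, the genes highest in macrophages by the widest ratio to the second class within a library, and for Abca1, the cholesterol exporter and the only member whose window held a searched motif. They come from chr7:19699189-19699438 (minus strand), chr17:48346151-48346400 (plus strand) and chr4:53159896-53160145 (minus strand), and capitals mark the motif. Apoe had further RefSeq windows at other starts, which held no searched motif and are not shown.
Apoe: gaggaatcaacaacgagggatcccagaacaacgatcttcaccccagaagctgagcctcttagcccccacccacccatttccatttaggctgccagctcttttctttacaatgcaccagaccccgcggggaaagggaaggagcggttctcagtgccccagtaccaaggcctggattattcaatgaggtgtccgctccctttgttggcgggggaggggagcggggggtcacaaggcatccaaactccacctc
Trem2: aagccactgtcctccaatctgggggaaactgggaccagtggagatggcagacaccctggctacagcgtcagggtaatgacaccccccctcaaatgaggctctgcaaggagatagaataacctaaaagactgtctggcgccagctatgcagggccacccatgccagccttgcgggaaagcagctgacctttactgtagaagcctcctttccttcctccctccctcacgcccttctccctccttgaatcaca
Abca1: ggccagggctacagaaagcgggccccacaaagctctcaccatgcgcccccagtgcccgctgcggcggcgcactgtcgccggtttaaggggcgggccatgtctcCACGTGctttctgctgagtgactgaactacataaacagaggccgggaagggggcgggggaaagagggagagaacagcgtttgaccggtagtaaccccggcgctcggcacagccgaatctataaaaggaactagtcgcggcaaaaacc
Both motifs below were searched on both strands. The E-box CACGTG, the kind of site bound by lysosomal regulators such as Tfeb and Mitf, began 147 bases before the Abca1 start, and 1978 of 32851 windows of this length (6.02%) held it. The PU.1-type letters GAGGAAGT, which resemble the site of the myeloid factor PU.1, were in 802 windows (2.44%) and in none of the matched member windows. A match or its absence in this window describes the letters only.

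Cells were assigned to a class from raw counts of unique molecular identifiers (UMIs, counts of captured transcript molecules). Macrophages held at least 10 UMIs of C1qa, C1qb and C1qc together, endothelial cells 10 of Pecam1, Cdh5, Egfl7 and Cldn5, fibroblasts 10 of Dcn, Lum and Pdgfra, and epithelial cells 10 of Epcam, Krt8 and Krt18. Mural cells held 10 of Rgs5, Abcc9 and Kcnj8, and T cells 3 of Cd3d, Cd3e and Cd3g. Cells past more than 1 of these minimums were left out of all classes. Cells past the C1q minimum that also passed the T cell minimum were 9 of 47 in fresh 10x 1 and 4 of 83 in fresh 10x 2. They were 1 of 128 in stored 10x, 0 of 183 in BD 1 and 2 of 164 in BD 2. The libraries held at most 4186 cells and 29166129 to 59957945 UMIs, and the median mitochondrial share per cell was 6.14% to 7.17% on 10x, 15.2% in BD 1 and 19.8% in BD 2. Pairs of 10x libraries shared 1 to 5 cell barcodes and the BD libraries shared 24. Macrophages numbered 37, 61, 115, 167 and 149 in fresh 10x 1, fresh 10x 2, stored 10x, BD 1 and BD 2, the order in which 5 values are given from here on, and their median depth was 6028, 5432, 5246, 12055 and 8489 UMIs. Endothelial cells numbered 141, 66, 42, 34 and 8, fibroblasts 187, 114, 279, 290 and 197, and epithelial cells 1316, 1312, 2577, 2588 and 2630. Endothelial values of BD 2 therefore rest on 8 cells. The labelled macrophage class carried its defining markers: all 8 of Cd68, Csf1r, Adgre1, Mrc1, Lyz2, Fcgr1, Cd14 and Aif1 were detected in each library, at a summed level of 87.8 to 135 UMIs per 10000 in macrophages and at most 4.36 in the other 3 classes. Levels below are summed UMIs of a gene per 10000 UMIs of all cells of the class in that library. These levels carry no correction for how well each transcript is captured, so they are compared between cells and not between genes.

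**Figure D1:**
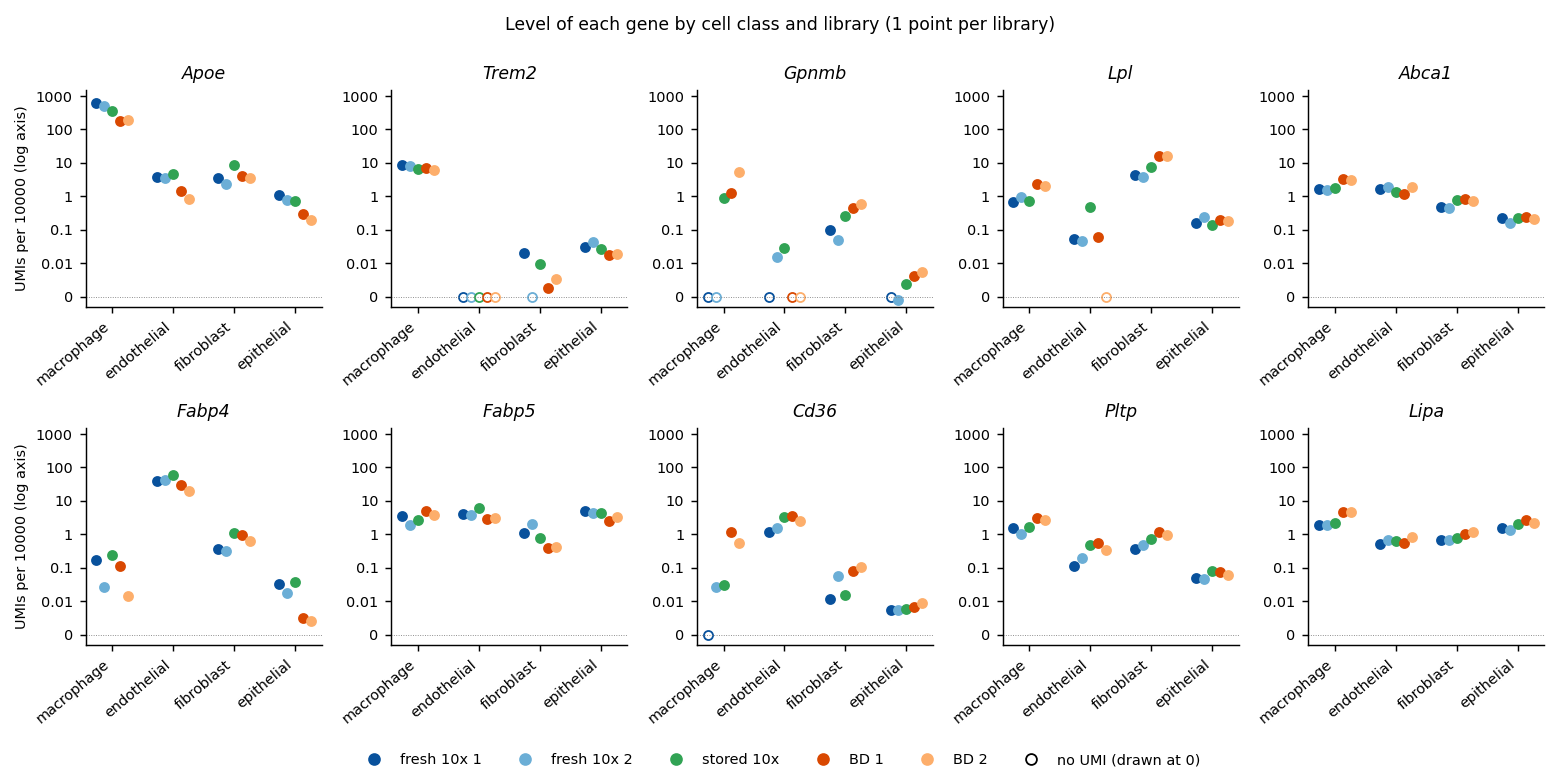
UMIs per 10000 (log axis) of each gene in 4 cell classes; each point is 1 of 5 libraries, and open points at the bottom had no UMI. Apoe, Trem2, Pltp and Lipa were highest in macrophages, Fabp4 and Cd36 in endothelial cells and Lpl in fibroblasts in all 5 libraries.

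Apoe, the apolipoprotein that carries cholesterol out of cells, was detected in every class and was by far highest in macrophages. There it stood at 621, 509, 368, 174 and 195 UMIs per 10000. Fibroblasts held 3.44, 2.28, 8.83, 4.12 and 3.57, and endothelial cells 3.67, 3.59, 4.82, 1.43 and 0.837. Epithelial cells held 1.10, 0.756, 0.716, 0.288 and 0.203. The macrophage values lay far above every other class, by 41.7 to 169 times the second class within a library, and the 2 BD libraries had the lowest macrophage values. In edgeR's quasi-likelihood test on class sums of the 5 libraries with library as a block, Apoe was higher in macrophages than in epithelial cells by 9.45 ± 0.400 on the log2 scale (SE; adjusted p = 1.1e-16). The same difference was 7.34 ± 0.378 against endothelial cells (adjusted p = 1.85e-14) and 6.32 ± 0.353 against fibroblasts (adjusted p = 3.55e-14). After each cell was thinned to 2000 UMIs, Apoe was detected in 95.8% to 100% of macrophages. Among epithelial cells it was detected in 4.07% to 10.7%, against 1.37% to 11.1% of T cells, which should lack it, and each epithelial share lay inside the counting interval of the T cell share of its library, so that epithelial detection could not be told from background at this depth. By sum the T cells held 0.240, 0.626, 0.190, 0.148 and 0.197 UMIs per 10000, on 5, 7, 5, 7 and 11 UMIs, below the epithelial level in each library.

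Trem2, the lipid-sensing receptor, varied little between the macrophages of the 5 libraries. Its level was 8.42, 7.88, 6.79, 6.85 and 6.20 UMIs per 10000, with no overlap with any other class. Endothelial cells, mural cells and T cells had no Trem2 UMI in any library. Epithelial cells held 0.0181 to 0.0423, on 74 to 120 UMIs in 1312 to 2630 cells, and fibroblasts 0 to 0.0201. Trem2 was 8.21 ± 0.209 higher on the log2 scale in macrophages than in epithelial cells (adjusted p = 1e-18) and 10.18 ± 0.284 higher than in fibroblasts (adjusted p = 8.4e-18). Against the pooled endothelial cells, which had 0 UMIs, the macrophage level was at least 613.5-fold higher, taking 3 UMIs over the group as the limit that a count of 0 allows. At 2000 UMIs per cell, 56.4% to 70.3% of macrophages had a Trem2 UMI. The T cell share was 0 of 46, 18, 51, 73 and 108 cells, which allows up to 6.52%, 16.7%, 5.88%, 4.11% and 2.78%, and intervals and limits of this kind cover counting error only.

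Cd36, the fatty acid and scavenger receptor, had its highest level in endothelial cells in each library, at 1.18, 1.52, 3.27, 3.62 and 2.51 UMIs per 10000. Macrophages held 0, 0.0267, 0.0307, 1.18 and 0.560, so that the libraries on 10x sat near 0 and the 2 BD libraries did not. The 10x values stand on 0, 1 and 2 UMIs. In BD 1 the 253 macrophage UMIs lay in 20 cells, 1 of which held 127, and in BD 2 the 76 UMIs lay in 15 cells. Cd36 was lower in macrophages than in endothelial cells, at -2.37 ± 0.381 (log2; adjusted p = 1.11e-05), and higher than in fibroblasts by 3.10 ± 0.450 (adjusted p = 1.55e-06). Fibroblasts held 0.0121, 0.0563, 0.0157, 0.0820 and 0.106, so that macrophages were below them in both fresh 10x libraries and the excess lay in the BD libraries and, on 2 UMIs, in stored 10x. Mural cells, defined by at least 10 UMIs of Rgs5, Abcc9 and Kcnj8, held 0.358 to 2.09.

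Among the other macrophage-leading genes, Pltp, the phospholipid transfer protein, measured 1.53, 1.02, 1.61, 3.14 and 2.72 UMIs per 10000 in macrophages. Fibroblasts were second in each library at 0.358, 0.484, 0.701, 1.19 and 0.982. The 2 ranges overlapped across libraries and did not within any library, where the ratio was 2.10 to 4.27. The log2 difference was 1.54 ± 0.171 against fibroblasts (adjusted p = 1.91e-08), 3.003 ± 0.243 against endothelial cells (adjusted p = 1.02e-10) and 5.07 ± 0.190 against epithelial cells (adjusted p = 9.39e-18).

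Lipa, the lysosomal acid lipase, was present in all classes. Macrophages held 1.96, 1.95, 2.17, 4.62 and 4.60 UMIs per 10000 and epithelial cells 1.52, 1.37, 2.10, 2.67 and 2.19. In stored 10x these neighbours stood at a ratio of 1.03. Over the 5 libraries Lipa was 0.72 ± 0.148 higher on the log2 scale in macrophages than in epithelial cells (adjusted p = 0.000157), with macrophages above in 5 of 5 libraries. The log2 difference was 1.89 ± 0.156 against fibroblasts and 2.46 ± 0.190 against endothelial cells (adjusted p = 8.1e-11 and 4.38e-11).

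Abca1, the cholesterol exporter, was shared by macrophages and endothelial cells. Macrophages held 1.61, 1.50, 1.74, 3.32 and 3.13 UMIs per 10000 and endothelial cells 1.62, 1.87, 1.38, 1.19 and 1.84, so that endothelial cells were level or higher in both fresh 10x libraries and lower in the other 3. The fit over 5 libraries put macrophages 0.79 ± 0.206 above endothelial cells on the log2 scale (adjusted p = 0.00263). Fibroblasts at 0.450 to 0.851 and epithelial cells at 0.164 to 0.236 were lower in every library, by 1.90 ± 0.187 and 3.53 ± 0.191 below macrophages (log2; adjusted p = 2.14e-09 and 1.81e-14).

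Lpl, the triglyceride lipase, was a fibroblast gene in these tumours. Fibroblasts held 4.43, 3.80, 7.38, 15.99 and 16.1 UMIs per 10000. Macrophages held 0.655, 0.962, 0.722, 2.32 and 2.06, below the fibroblasts by 3.95 to 10.2 times within a library. Mural cells, which are not in the comparison, held 0.894 to 4.79. Macrophages were lower than fibroblasts, at -2.64 ± 0.314 (log2; adjusted p = 6.35e-08), higher than epithelial cells by 2.82 ± 0.335 (adjusted p = 6.05e-08) and higher than endothelial cells by 3.54 ± 0.508 (adjusted p = 2.11e-06). At 2000 UMIs per cell, 43.0% to 65.5% of fibroblasts and 8.11% to 16.8% of macrophages had an Lpl UMI. The fat cell markers Adipoq, Plin1, Cidec and Retn summed to at most 0.14 per 10000 in macrophages and at most 0.02 in fibroblasts.

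Fabp4, the fatty acid carrier of capillary endothelium and fat cells, marked vessels. Endothelial cells held 40.2, 42.6, 57.7, 28.9 and 19.7 UMIs per 10000. Fibroblasts held 0.321 to 1.10, and macrophages 0.175, 0.0267, 0.246, 0.112 and 0.0147, above epithelial cells alone in each library. Epithelial cells held 0.0325, 0.0182, 0.0375, 0.00323 and 0.00256 and T cells 0.0480, 0, 0.0379, 0 and 0 (at most 1 UMI a library). These T cell counts are too few to tell whether epithelial Fabp4 is background. These macrophage values stand on 4, 1, 16, 24 and 2 UMIs, of which 1 cell held 8 of 16 in stored 10x and 23 of 24 in BD 1. Mural cells held 7.58 to 24.9 beside endothelial marker sums (Kdr, Flt1, Emcn, Tie1, Esam) of 5.07 to 11.7 there, against 34.7 to 42.5 in endothelial cells, and the part of endothelial RNA in the mural level was not tested. Macrophages were lower than endothelial cells, at -8.11 ± 0.530, and lower than fibroblasts, at -2.68 ± 0.543 (log2; adjusted p = 1.75e-12 and 0.00014).

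Fabp5, the second carrier, did not keep the same order of macrophages, endothelial cells and epithelial cells across libraries. Macrophages held 3.54, 1.90, 2.73, 4.96 and 3.70 UMIs per 10000, endothelial cells 4.06, 3.84, 6.11, 2.92 and 3.01, and epithelial cells 4.84, 4.30, 4.25, 2.48 and 3.26. Macrophages led in the 2 BD libraries, epithelial cells in the 2 fresh 10x libraries and endothelial cells in stored 10x. The macrophage differences of 0.08 ± 0.296 against epithelial cells and 0.25 ± 0.322 against endothelial cells (log2) did not pass the test (adjusted p = 0.833 and 0.584). Mural cells held 5.89, 8.88, 10.2, 2.69 and 1.50, above all 4 classes in the 10x libraries. The macrophage sums lay in few cells: 1 cell held 38 of 81 UMIs in fresh 10x 1 and 399 of 1061 in BD 1, and the median macrophage had no Fabp5 UMI in any library. Fibroblasts held 0.393 to 1.99, and the fit over 5 libraries put them below macrophages by 2.22 ± 0.324 on the log2 scale (adjusted p = 1.66e-06). In fresh 10x 2 they were nevertheless above macrophages, at 1.99 against 1.90.

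Gpnmb, the glycoprotein of lipid-laden macrophages, was not detected in fresh 10x macrophages, where 0 of 37 and 0 of 59 cells with at least 2000 UMIs allow a share of up to 8.11% and 5.08%. Its macrophage level was 0, 0, 0.907, 1.23 and 5.18 UMIs per 10000 on 0, 0, 59, 263 and 704 UMIs. Fibroblasts held 0.0965, 0.0506, 0.263, 0.437 and 0.602 and led in the fresh 10x libraries. The UMIs lay in few macrophages: 3 stored 10x cells, 1 of which held 56 of 59, 11 BD 1 cells, 1 of which held 63 of 263, and 4 BD 2 cells, 1 of which held 548 of 704. The fit over 5 libraries gave 2.08 ± 0.304 for macrophages above fibroblasts on the log2 scale (adjusted p = 1.72e-06), a value that rests on these 18 cells.

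The counts in this paragraph are calls of the fit over 5 libraries, and a single library could go the other way. Counted over the 10 genes, macrophages exceeded epithelial cells for 9 and were lower for 0, beside 26.6% of 11678 tested genes higher and 36.6% lower in that contrast. Against fibroblasts 8 genes were higher and Lpl and Fabp4 lower, beside 28.4% and 30.5% of all genes. Against endothelial cells 7 were higher and Fabp4 and Cd36 lower, beside 22.0% and 21.2%. The median log2 difference of the 10 genes was 4.30 against epithelial cells, 1.99 against fibroblasts and 2.73 against endothelial cells, where the median of all genes was -0.19, 0.01 and 0.03. Between the other classes, endothelial cells exceeded epithelial cells for Fabp4, Cd36, Abca1, Apoe and Pltp and were lower for Lipa and for Trem2, which had no endothelial UMI (24.6% of all genes higher, 33.0% lower). Fibroblasts exceeded epithelial cells for 7 genes, led by Gpnmb at 6.88 ± 0.385, Fabp4 at 5.51 ± 0.441 and Lpl at 5.46 ± 0.333 (log2), and were lower for Fabp5, Lipa and Trem2 (31.9% and 39.2%). Endothelial cells exceeded fibroblasts for Cd36, Fabp4, Fabp5 and Abca1 and were lower for Apoe, Gpnmb, Lipa, Lpl and Pltp (21.7% and 25.7%). For Apoe they were nevertheless above fibroblasts in both fresh 10x libraries (3.67 against 3.44 and 3.59 against 2.28 UMIs per 10000). For Lipa they were above fibroblasts in fresh 10x 2 (0.685 against 0.675).

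The class with the highest level was not always the class that held most of a gene's molecules. Macrophages held 61.3%, 55.8%, 67.0%, 80.3% and 84.0% of all Apoe UMIs and 55.0%, 49.3%, 64.6%, 78.8% and 82.4% of all Trem2 UMIs. Epithelial cells held 84.5% to 91.1% of Fabp5 UMIs and 83.3% to 91.7% of Lipa UMIs. They also made up 62.8% to 68.6% of all cells and held most UMIs of all genes together in every library. Their shares of Fabp5 and Lipa therefore cannot by themselves be read as a trait of these genes. Fibroblasts held 43.8% to 74.1% of Lpl UMIs. Endothelial cells held 78.7%, 62.5%, 50.1%, 55.2% and 29.9% of Fabp4 UMIs. These shares move with the number of cells of each class in a library as well as with the level per cell.

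**Figure D2:**
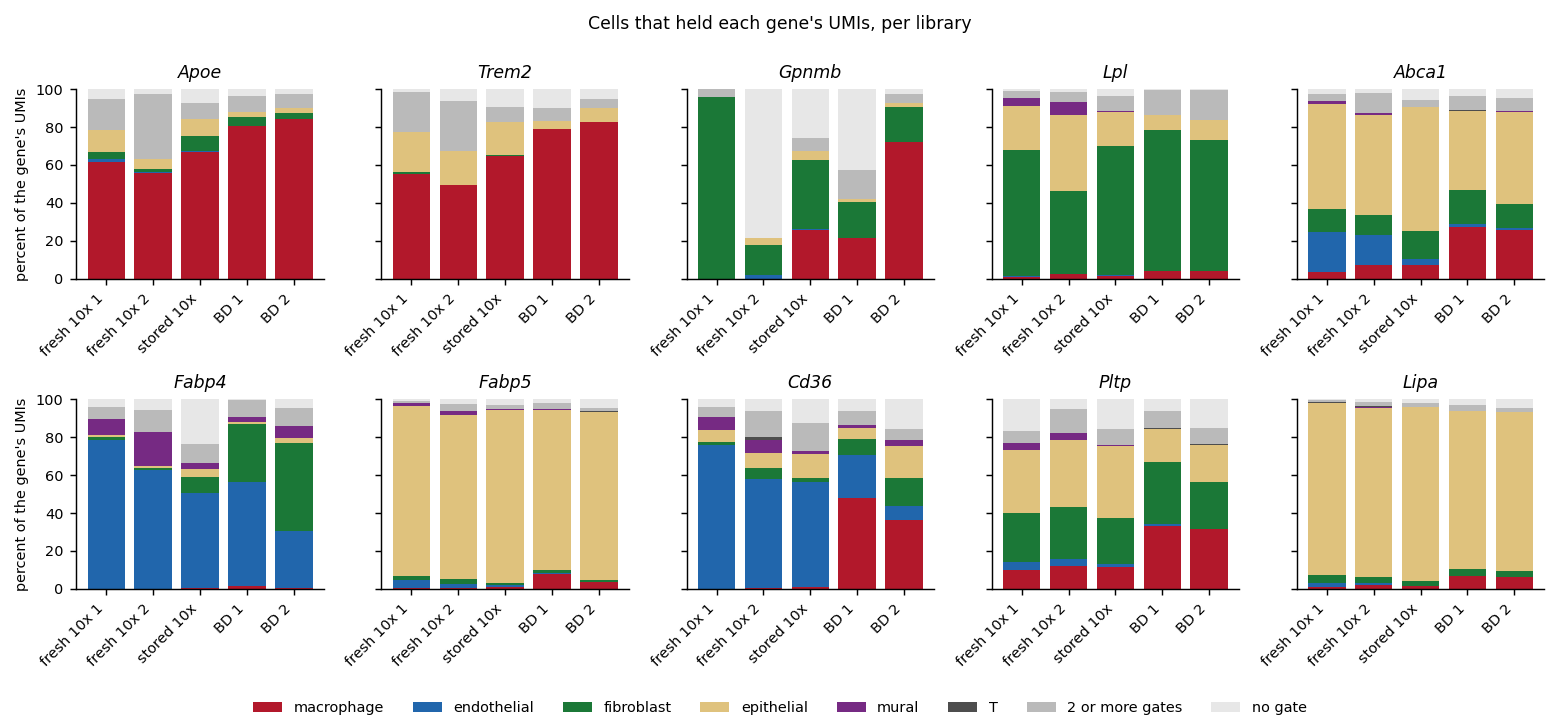
Percent of each gene's UMIs (vertical axis) that lay in each cell class, in cells past 2 or more class minimums and in cells past none, for the 5 libraries. Most Apoe and Trem2 UMIs lay in macrophages in every library except Trem2 in fresh 10x 2 (49.3%). Most Lipa and Fabp5 UMIs lay in epithelial cells, which also held most UMIs of all genes together.

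The partners of these genes were followed as lists. Of all genes, 26.6% were higher and 36.6% lower in macrophages than in epithelial cells. Against fibroblasts 28.4% were higher and 30.5% lower, and against endothelial cells 22.0% and 21.2%. The TREM2 signalling list (Tyrobp, Hcst, Syk, Plcg2, Inpp5d, Pik3cd) was higher in macrophages against each of the other 3 classes for 6 of 6 genes. Tyrobp, the adaptor of Trem2, stood at 16.8 to 27.7 UMIs per 10000 in macrophages and 10.01 ± 0.260 above epithelial cells on the log2 scale. The phosphatase Inpp5d and the kinase Syk stood 8.70 ± 0.201 and 8.64 ± 0.263 above them. T cells also carried this list, at a summed 10.9 to 15.4 per 10000 against 23.0 to 31.2 in macrophages. The lysosomal list was higher in macrophages for 9 of 10 genes against epithelial cells and 10 of 10 against endothelial cells, with the protease Ctsb at 3.24 ± 0.195, the saposin precursor Psap at 2.76 ± 0.145 and the transcription factor Mitf at 4.01 ± 0.259 (log2, against epithelial cells). Against fibroblasts 7 of 10 were higher and Cd63 and Ctsl were lower.

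The list of LXR targets and cholesterol efflux genes was mixed. Of 7 tested genes, 4 were higher in macrophages than in epithelial cells, led by the sterol exporter Abcg1 at 4.41 ± 0.232, and 2 were lower: the apolipoprotein Apoc1 at -3.43 ± 0.299 and Srebf1, a regulator of fatty acid synthesis, at -3.25 ± 0.159 (log2). Apoc1, a gene of the same apolipoprotein cluster as Apoe, held 0 to 0.184 UMIs per 10000 in macrophages and 0.642 to 1.40 in epithelial cells. In the list of lipoprotein uptake and droplet genes, 5 of 10 were higher and 2 lower than in epithelial cells. The scavenger receptor Msr1 stood at 10.17 ± 0.258 and the lipoprotein receptor Lrp1 at 5.83 ± 0.204, while Vldlr stood at -5.47 ± 0.715. Lrp1 was nevertheless lower in macrophages than in fibroblasts, which held 3.94 to 6.46 per 10000 against 1.02 to 1.57. Of 5 further genes of lipid-associated macrophages, Mertk (4.13 ± 0.241), Acp5 (3.34 ± 0.202) and Lgals3 (2.66 ± 0.190) were higher than in epithelial cells and Cd9 and Spp1 were lower.

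Around Fabp4 and Cd36, the list of endothelial fatty acid transport genes was higher in endothelial than in epithelial cells for 5 of 5 tested genes (24.6% of all genes). The same 5 were lower in macrophages than in endothelial cells (21.2% of all genes). Gpihbp1, which anchors Lpl on capillaries, stood 10.73 ± 0.285 above epithelial cells on the log2 scale, the transcription factor Meox2 9.64 ± 0.345 and the nuclear receptor Pparg 5.91 ± 0.524. Gpihbp1 measured 9.72, 9.21, 11.6, 3.95 and 7.70 UMIs per 10000 in endothelial cells and 0 in macrophages of all 5 libraries. Its ligand Lpl was at 0 to 0.479 in the same endothelial cells.

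The platform comparison set BD 1, a single library, against the 2 fresh 10x libraries within each class. The storage comparison set stored 10x, also a single library, against the same 2 libraries. The spread in both comparisons comes from the fresh 10x pair alone, and platform or storage cannot be told apart from a difference between tumours or libraries. In macrophages Apoe fell from 621 and 509 to 174 UMIs per 10000, by 2.06 ± 0.155 on the log2 scale (adjusted p = 0.00375). Gpnmb rose from 0 to 263 UMIs, at least 24.7-fold, and Cd36 from 1 to 253 UMIs, a ratio of 71.4 with an exact 95% counting interval of 12.7 to 2829. That interval takes the UMIs as independent, although 127 of the 253 lay in 1 cell. Apoe, Gpnmb and Cd36 were called, beside 12.9% of 6988 genes tested, and 8 of the 10 were called with every class minimum doubled, beside 28.9% of all genes there. Lpl at 1.11 ± 0.296, Lipa at 0.87 ± 0.234, Pltp at 0.97 ± 0.288 and Abca1 at 0.73 ± 0.240 (log2) did not pass (adjusted p = 0.0589, 0.0598, 0.0748 and 0.0929), although BD 1 was above both fresh 10x libraries for each. Trem2 at -0.62 ± 0.221 (adjusted p = 0.113) and Fabp5 at 0.54 ± 0.352 (adjusted p = 0.327) did not pass either. Scaling by trimmed means put these macrophage values a median 0.39 lower on the log2 scale than the plain ratio of levels (-0.439 to -0.35), against -0.165 to 0.0578 in the other class comparisons. Macrophages of BD 1 also differed in monocyte markers (Ly6c2, Plac8, Chil3), which summed to 1.75 and 1.04 per 10000 in fresh 10x and 0.21 in BD 1, and their part in these differences was not tested. Of the LXR list 0 of 5 tested genes were called in this comparison, of the TREM2 signalling list Pik3cd rose and Tyrobp fell, and of the lysosomal list Ctsb, Ctsl and Psap rose and Ctsd fell.

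**Figure D3:**
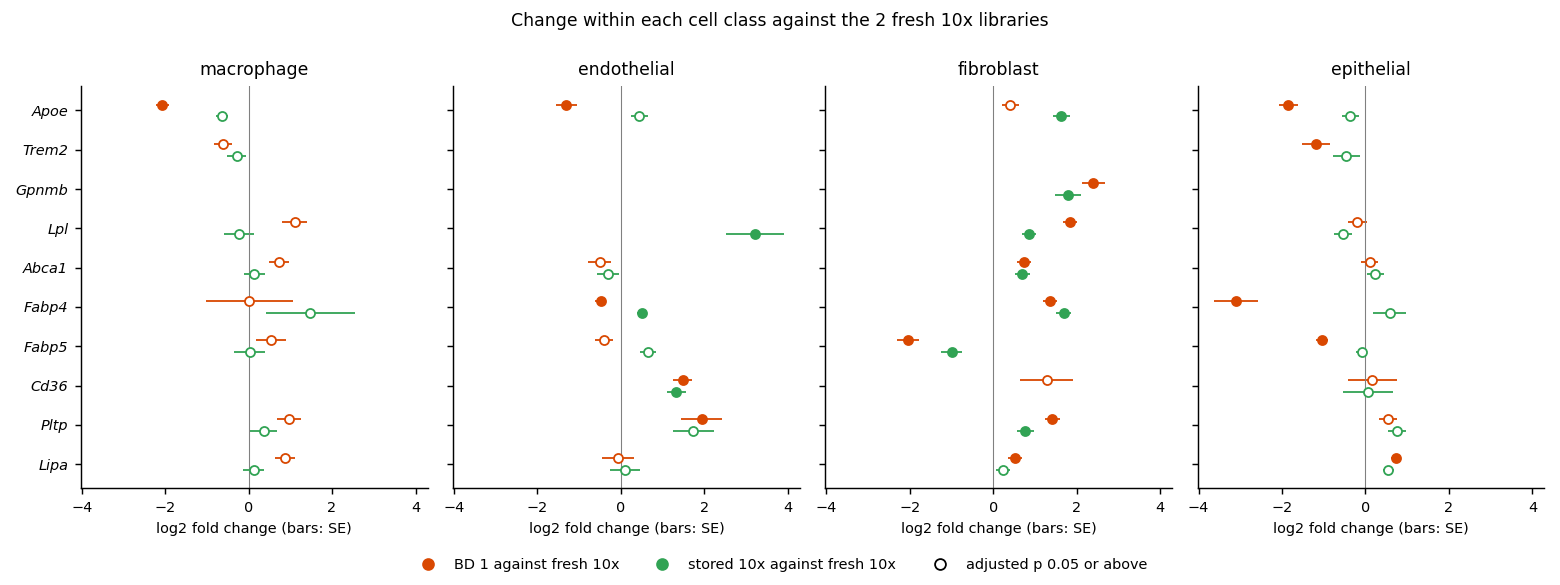
Log2 fold change (horizontal axis; bars are SE) of each gene in BD 1 (red) and stored 10x (green) against the 2 fresh 10x libraries, by cell class; filled points had an adjusted p under 0.05. Genes with 3 or fewer fresh UMIs, or under 20 in all, are not drawn. In macrophages only Apoe among the drawn genes was filled, and in fibroblasts most genes were.

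In the other classes Apoe in BD 1 fell by 1.31 ± 0.254 in endothelial cells and by 1.85 ± 0.228 in epithelial cells (log2; adjusted p = 0.000174 and 0.000458), and stood at 0.41 ± 0.207 in fibroblasts (adjusted p = 0.115). Endothelial cells of BD 1 were also lower in Fabp4 (-0.48 ± 0.131) and higher in Cd36 (1.48 ± 0.231) and Pltp (1.93 ± 0.488), 4 of 8 tested members beside 20.5% of all genes. Epithelial cells of BD 1 were lower in Fabp4 (-3.11 ± 0.530), Trem2 (-1.18 ± 0.333) and Fabp5 (-1.04 ± 0.144) and higher in Lipa (0.73 ± 0.125), which with Apoe makes 5 of 10 beside 43.9%. The epithelial Fabp4 value compares 123 UMIs with 15, a level that could not be told from background, and epithelial Apoe detection was not told from that of T cells either. Fibroblasts of BD 1 were called for 7 of 9 tested members beside 43.9%: Gpnmb (2.40 ± 0.279), Lpl (1.85 ± 0.167), Pltp (1.42 ± 0.183), Fabp4 (1.36 ± 0.177), Abca1 (0.74 ± 0.173) and Lipa (0.52 ± 0.164) rose and Fabp5 fell by 2.05 ± 0.264. The member shares in epithelial cells were close to the share of all genes.

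In stored 10x macrophages none of the 10 genes was called by edgeR, beside 0% of 6988 genes, of which 453 had an unadjusted p under 0.05 and DESeq2 called 3. Apoe at 368 was below both fresh 10x libraries, at -0.64 ± 0.143 (log2; adjusted p = 0.628), and Gpnmb went from 0 to 59 UMIs, at least 18.2-fold with 56 of the UMIs in 1 cell. In epithelial cells 0 of 10 genes were called beside 1.48%, with Lipa at 0.55 ± 0.126 (adjusted p = 0.0875). In endothelial cells Cd36 (1.33 ± 0.232), Fabp4 (0.51 ± 0.125) and Lpl (3.22 ± 0.694) were higher, beside 1.34% of all genes. Of the 17 endothelial Lpl UMIs in stored 10x, 15 lay in 1 cell, and none of the 3 was called with every class minimum halved or with DESeq2. In fibroblasts 7 of 9 tested genes were called beside 11.1%: Fabp4 (1.69 ± 0.181), Gpnmb (1.79 ± 0.315), Apoe (1.64 ± 0.202), Lpl (0.86 ± 0.170), Pltp (0.77 ± 0.199) and Abca1 (0.70 ± 0.182) rose, and Fabp5 fell by 0.99 ± 0.254. DESeq2 called 2 of these genes in stored 10x fibroblasts, beside 2.03% of all genes.

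The kinds of fibroblast captured also differed between libraries, and their part in the fibroblast changes was not tested. Fibroblasts with at least 5 UMIs of Efemp1 and Clec3b, and more of these than of Cilp and Thbs4, made up 14.4%, 28.1%, 64.2%, 64.5% and 60.9% of fibroblasts, and those with the reverse 67.9%, 58.8%, 26.9%, 33.4% and 31.5%. Lpl measured 8.96, 8.25, 9.70, 21.1 and 22.1 UMIs per 10000 in the Efemp1 and Clec3b kind and 2.98, 2.12, 2.81, 6.23 and 6.30 in the Cilp and Thbs4 kind. Fabp4 measured 2.13, 1.09, 1.61, 1.43 and 0.98 in the first kind and at most 0.21 in the second. Apoe measured 14.2, 3.21, 12.4, 5.93 and 4.96 in the first and 0.49 to 2.43 in the second. Lpl, Apoe, Fabp4 and Pltp were higher in the Efemp1 and Clec3b kind in all 5 libraries, whereas Lipa, Fabp5, Gpnmb and Abca1 were not. Gpnmb was lower in this kind in stored 10x alone (0.181 against 0.324) and Abca1 in BD 2 alone (0.700 against 0.743).

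Within the Efemp1 and Clec3b fibroblasts, 0 of 9 tested members were called in stored 10x beside 1.33% of all genes (133 of 9987), where Apoe stood at 0.50 (adjusted p = 0.422) and Lpl at 0.16 (log2), a comparison added after the data were seen. In BD 1 the rises of Lpl (1.10, adjusted p = 2.56e-06), Gpnmb (1.45, adjusted p = 0.00347) and Pltp (0.84, adjusted p = 0.0157) were also called within this kind, and so was the fall of Fabp5 by 1.83, beside 22.8% of all genes. Apoe turned to -0.74 (adjusted p = 0.00935), and Fabp4 stood at -0.33 and Abca1 at -0.14 on the log2 scale without being called. This kind of fibroblast gave 27 and 32 cells in the fresh 10x libraries.

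**Figure D4:**
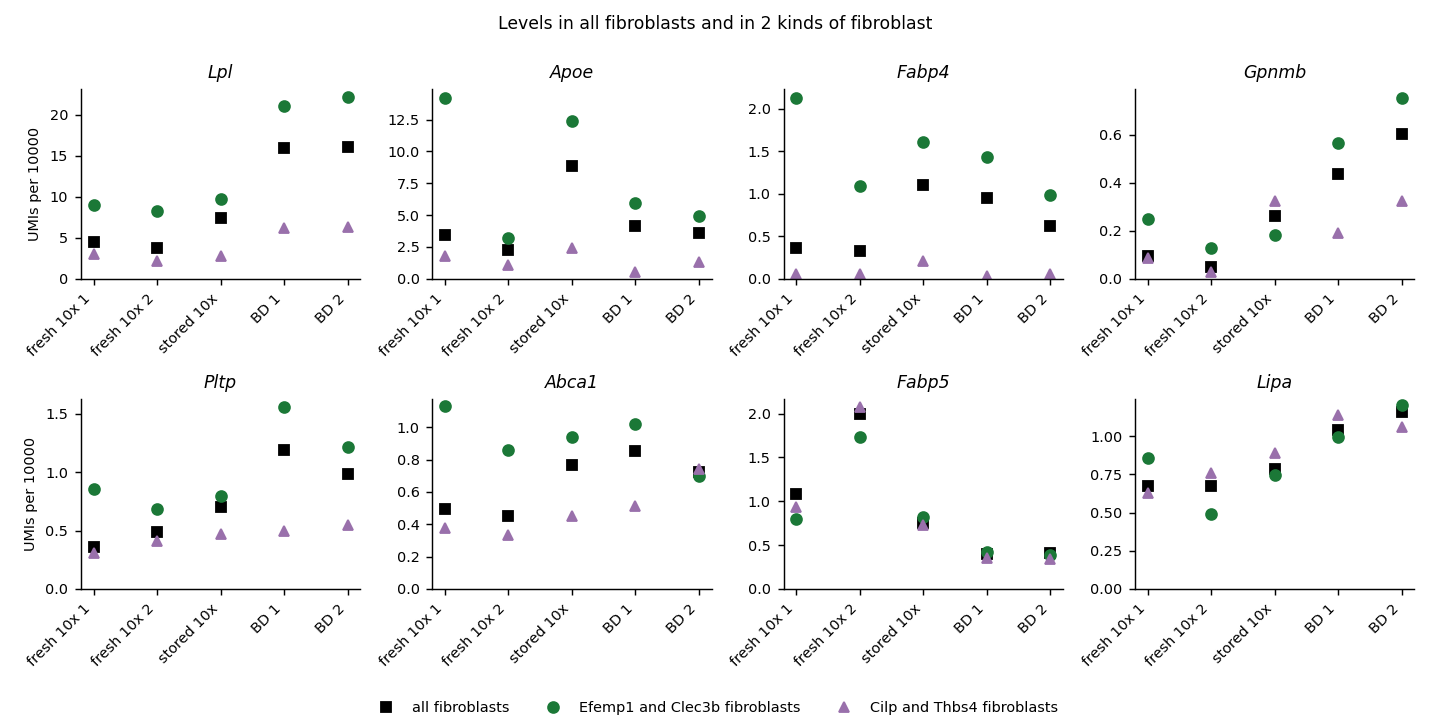
UMIs per 10000 (vertical axis) of 8 genes in all fibroblasts (squares), in Efemp1 and Clec3b fibroblasts (circles) and in Cilp and Thbs4 fibroblasts (triangles) of the 5 libraries. Lpl, Apoe, Fabp4 and Pltp were higher in the Efemp1 and Clec3b kind in every library, and that kind rose from 14.4% and 28.1% of fibroblasts in fresh 10x to over 60% in the other 3 libraries.

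Whether the changes differed between classes was tested directly, as a difference of the log2 changes over 11743 genes. Of the members, Cd36 was called for macrophages minus epithelial cells in BD 1 (0.460% of genes called) and 0 in stored 10x (0.0170%), and Fabp4 for endothelial minus epithelial cells in BD 1 (0.187%) and 0 in stored 10x (0.00852%). The other 4 class pairs were added after the data were seen. They called Cd36 for macrophages minus endothelial cells in BD 1 (0.775% of genes) and Apoe and Fabp5 for macrophages minus fibroblasts in BD 1 (1.16%), with Apoe alone in stored 10x (0.213%). For fibroblasts minus epithelial cells they called Apoe, Fabp4 and Lpl in BD 1 (3.84%) and Apoe and Lpl in stored 10x (2.38%), and for endothelial cells minus fibroblasts Apoe and Fabp4 in BD 1 (0.749%) and Apoe in stored 10x (0.179%). The Apoe change in macrophages minus that in fibroblasts was -2.26 ± 0.198 in BD 1 and -2.19 ± 0.198 in stored 10x (log2; adjusted p = 5.93e-06 and 2.08e-05).

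Macrophages with a Gpnmb UMI (3 from stored 10x, 11 from BD 1 and 4 from BD 2) carried more of some other lipid genes than the macrophages without one, and not of all. Fabp5 summed to 27.8, 31.2 and 21.6 UMIs per 10000 in them, in that order, and to 1.77, 2.41 and 2.86 in the others. Pltp measured 9.94, 9.77 and 14.97 against 1.29, 2.50 and 2.15, and Trem2 13.7, 11.8 and 14.6 against 6.53, 6.37 and 5.81. In the BD libraries Cd36 measured 9.98 and 4.61 against 0.33 and 0.37, with 127 of the 189 BD 1 UMIs in 1 cell, and it was at 0 in the 3 cells of stored 10x. Apoe was lower in them in stored 10x (356 against 368) and BD 1 (149 against 177) and higher in BD 2 (426 against 184). Lpl was at 0 against 0.75 in stored 10x and higher in the BD libraries, at 7.55 and 5.27 against 1.82 and 1.91. Spp1, the secreted protein osteopontin, measured 140, 82.0 and 16.5 against 16.1, 7.57 and 3.62, and Lgals3, a lectin, 95.3, 68.6 and 39.7 against 7.66, 11.5 and 8.97. Csf1r, the receptor of the main macrophage growth factor, was lower in them at 1.66, 4.70 and 8.39 against 7.66, 19.9 and 18.5. The cells with a Gpnmb UMI were deeper, with medians of 7699, 14937 and 16987 UMIs against 5163, 11719 and 8461, and since Gpnmb itself chose them these values are a description without a test.

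**Figure D5:**
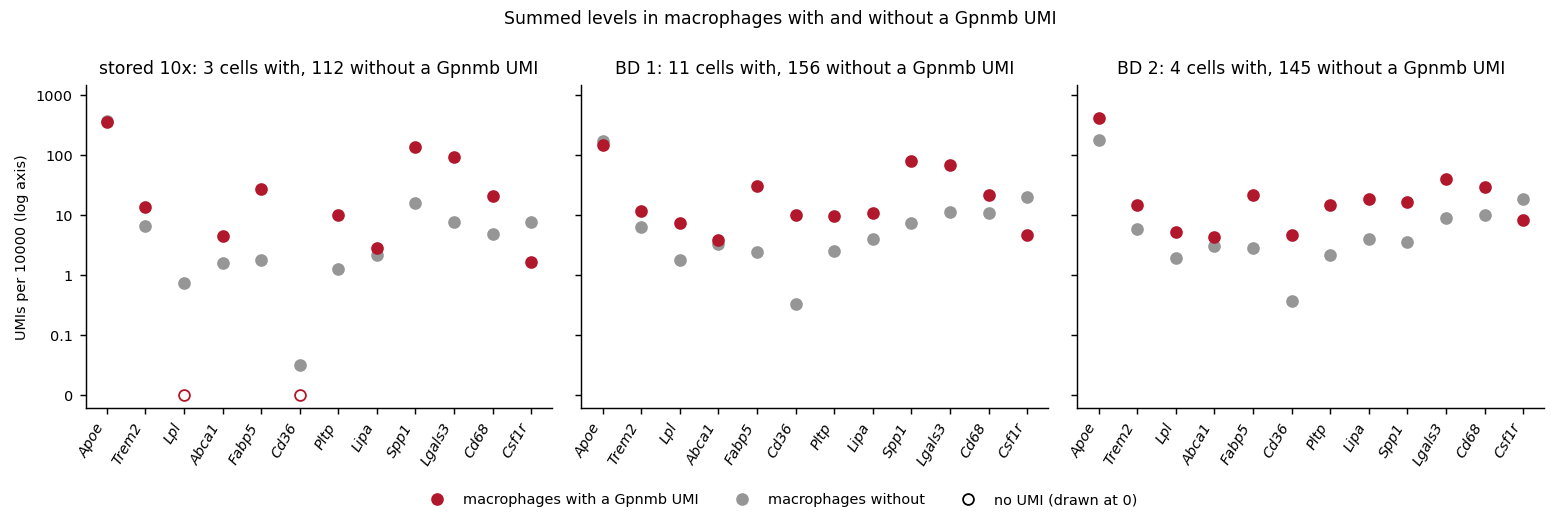
Summed UMIs per 10000 (log axis) of 8 lipid genes and 4 macrophage genes in macrophages with (red) and without (grey) a Gpnmb UMI, in the 3 libraries that had any; open points had no UMI. Fabp5, Pltp, Spp1 and Lgals3 were higher in the cells with Gpnmb in each library and Csf1r lower.

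Cells outside the class minimums held a further part of Gpnmb. Those with at least 5 Gpnmb UMIs, chosen after their values were seen, were 1 cell with 42 UMIs from fresh 10x 2, 2 cells with 58 from stored 10x, 3 cells with 522 from BD 1 and 2 cells with 24 from BD 2. The cell of fresh 10x 2 held 222 Apoe, 18.2 Trem2, 124 Fabp5, 299 Spp1 and 395 Lyz2 UMIs per 10000 and no C1qa, Csf1r or Abca1. The 3 cells of BD 1 held 26.3 Trem2, 46.6 Cd68, 194 Spp1 and 5.47 Csf1r per 10000 and no C1qa. In both libraries Csf1r was higher in the macrophages without a Gpnmb UMI, at 5.74 in fresh 10x 2. The identity of the cells outside the minimums was not tested. The C1q minimum that defines macrophages here therefore left out the cells in which fresh 10x 2 held 78.6% of its Gpnmb UMIs (all cells past no minimum).

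Across single macrophages Apoe and Trem2 had the highest median rank correlation among pairs of the 10 genes measured in all 5 libraries, with Spearman's rho of 0.300 to 0.456 and a median of 0.404 over 37 to 167 cells a library. Another pair was higher in 3 of the 5: Abca1 and Lipa at 0.414 in fresh 10x 1, Abca1 and Fabp5 at 0.380 in fresh 10x 2 and Apoe and Abca1 at 0.473 in BD 2. Apoe and Abca1 had a median rho of 0.298 and Apoe and Lipa of 0.0998. The cells of a library share their depth and their free RNA, so these are descriptions.

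Over the 20 class sums, the genes whose log2 level was most like a member's by Pearson's r were listed, up to 3 to a member, and class sums of a library share its platform and depth. For Trem2 they were Ppfia4 (0.988) and AB124611 (0.987), and for Apoe Man2b1 (0.965), Nfe2l2 (0.956) and Tmem176a (0.951). Abca1 was most like Qk (0.967), Slco2b1 (0.961) and Trim30a (0.958), Fabp4 most like Mgat4b (0.966), Eng (0.950) and Ece1 (0.947), and Lpl most like Tppp3 (0.955), Derl1 (0.923) and Ptprs (0.923). Pltp had Epb41l2 (0.945), Gltp (0.945) and Rab3il1 (0.936), and Lipa had Arhgap4 (0.947), Fgd3 (0.943) and Ifrd1 (0.939). The likeness was lowest for Cd36 with Ptpn12 (0.916), Xiap (0.916) and Cds2 (0.912), for Gpnmb with Npy1r (0.885), Elmo2 (0.880) and Fbxo42 (0.860), and for Fabp5 with Dgkz (0.878) and Sap30 (0.866).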

How the data were processed

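The authors deposited raw UMI counts per gene and cell, read here as whole-number counts without normalisation. The submitters' processing notes name Cell Ranger 3.0.1 and the build mm10. Only the main matrix of each of the 5 samples was used, and a pooled fresh 10x matrix and 2 subsets of BD 1 were not used here. Gene spellings were merged to 41028 names. Cells past 2 or more class minimums (34, 41, 60, 90 and 62) were left out of the classes, and no doublet caller was run. Raw counts were summed per library and class and tested with edgeR 4.0.16 in R 4.3.3 (quasi-likelihood, trimmed-mean scaling, filterByExpr, Benjamini-Hochberg over all genes tested, threshold 0.05), with library as a block in the class contrasts. The SE of a log2 value was back-calculated from the edgeR test, as the absolute log2 value divided by the square root of the F statistic. DESeq2 1.42.0 was an alternative. Python 3.11.15 was used for the remaining steps. The fits were also run on simulated counts with the same spread for every gene and changes only in well-counted genes. That setting does not cover genes with few UMIs, and its outcome is not reported here. Shares used cells thinned to 2000 UMIs with exact Clopper-Pearson intervals (95%), leaving out shallower cells. The 10 genes, the gene lists and the tests were chosen with earlier results of these data known. Named partner genes were the up to 3 largest called log2 differences of each list, and genes of like pattern the 3 highest Pearson r, of which some are not reported here. Fitted folds between groups within a class were given only where the reference group held over 3 UMIs and both groups at least 20 in all. Below that, Cd36 in macrophages, with 1 fresh 10x UMI, was given as a plain ratio and in the differences between classes. Counts of 0 were given as limits.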

Additional observations from a re-analysis of the deposited data

Results flagged for a closer look

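Each of the following is a difference between the log2 changes of 2 cell classes under the same contrast with fresh 10x, called by edgeR's interaction test at an adjusted p under 0.05. BD 1 and stored 10x are 1 library each, so platform or storage cannot be told apart from the library. For Apoe, the change in BD 1 was lower in macrophages than in fibroblasts (-2.26, adjusted p = 5.93e-06) and lower in endothelial cells than in fibroblasts (-1.85, adjusted p = 0.00247), and higher in fibroblasts than in epithelial cells (2.14, adjusted p = 9.35e-06). The same 3 differences for Apoe in stored 10x were -2.19 (adjusted p = 2.08e-05), -1.29 (adjusted p = 0.00873) and 1.97 (adjusted p = 2.44e-05). The Apoe change in fibroblasts was 0.41 in BD 1 and 1.64 in stored 10x over all fibroblasts, and -0.74 and 0.50 within the Efemp1 and Clec3b kind, and the part of the fibroblast kinds in these differences was not tested. Epithelial Apoe detection could not be told from that of T cells.

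Lpl changed more in fibroblasts than in epithelial cells, by 1.89 in BD 1 (adjusted p = 0.00131) and 1.34 in stored 10x (adjusted p = 0.0247). Fabp4 in BD 1 changed more in fibroblasts than in epithelial cells (4.31, adjusted p = 2.42e-05), more in endothelial than in epithelial cells (2.34, adjusted p = 0.0374) and less in endothelial cells than in fibroblasts (-1.97, adjusted p = 0.00648). The first 2 of these Fabp4 differences rest on an epithelial value that could not be told from background, 123 UMIs in the fresh 10x libraries and 15 in BD 1. Fabp5 in BD 1 changed by 2.86 more in macrophages than in fibroblasts (adjusted p = 0.00267). Cd36 in BD 1 changed by 5.77 more in macrophages than in epithelial cells (adjusted p = 0.0111) and by 4.71 more than in endothelial cells (adjusted p = 0.0193). The Cd36 values depend on the prior count of the fit, since the fresh 10x macrophages held 1 Cd36 UMI, and 127 of the 253 UMIs in BD 1 lay in 1 cell. No group here had 4 or more samples, so no library was checked for standing apart from its group.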

How the results depend on the processing

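For the class contrasts, of 855 values of the 10 genes under alternatives, 835 kept their direction and their side of the threshold, 9 lost the call, 4 gained it and 7 changed sign, all 7 for Fabp5. Its log2 difference from endothelial cells became -0.01 with every class minimum doubled, and from epithelial cells -0.19 with minimums doubled, -0.13 with minimums per 10000 UMIs, -0.13 with no filter on low counts, -0.09 with no replicate block, and -0.18 to 0.25 when 1 library was left out at a time (-0.18 without BD 1 and -0.01 without BD 2). Otherwise the library block changed no direction of a member. No paired analysis was possible because fresh 10x, stored 10x and BD 1 share fewer than 2 replicate numbers, and leaving out a fresh 10x library left no residual spread, a value with no test.

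Within classes, 602 of 725 values were unchanged, 25 lost and 47 gained the call, 29 changed sign and 22 moved. The macrophage calls for BD 1 depended most on the settings; the cause was not tested. Genes called (900 as reported) were 334 with minimums halved, 2076 with minimums doubled, 1936 with minimums per 10000 UMIs, 1988 with cells past 2 minimums kept, 1921 with cells under 500 UMIs or above 20% mitochondrial removed, 272 with DESeq2, 1785 with no filter, 1532 without mitochondrial genes, 2433 with BD 2 grouped by its title and 1710 without cells holding a T or dendritic UMI (an added setting). Members called were 8, 7, 8, 7, 7, 6, 8 and 7 with minimums doubled, minimums per 10000, cells past 2 minimums kept, cells removed, no filter, no mitochondrial genes, BD 2 by title and no T or dendritic UMI, against 3. Fabp4 there, on 5 fresh UMIs, became -0.01 (minimums halved), -6.49 (doubled), -4.36 (per 10000), -2.53 (2 minimums kept), -0.15 (DESeq2), -0.60 (BD 2 by title) and -0.01 (no T or dendritic UMI). For stored macrophages, where 0 genes were called, those settings gave 113 (doubled), 109 (per 10000), 57 (2 minimums kept), 96 (cells removed), 3 (DESeq2), 83 (no filter), 34 (no mitochondrial genes) and 69 (no T or dendritic UMI), with 2 members called under 5 of them (doubled, per 10000, cells removed, no mitochondrial genes, no T or dendritic UMI) and 1 under 2 (2 minimums kept, no filter). Lpl became 0.10 (2 minimums kept), Fabp4 -0.84 (doubled) and -1.05 (2 minimums kept), and Fabp5 -0.0 (doubled), -0.29 (2 minimums kept), -0.01 (DESeq2) and -0.03 (no T or dendritic UMI).

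In endothelial cells of BD 1, DESeq2 called 217 genes and 2 members, and Lipa became 0.30 (doubled), 0.18 (per 10000), 0.30 (2 minimums kept) and 0.03 (BD 2 by title). In stored endothelial cells (101 genes, 3 members) the counts were 39 genes (doubled), 160 (per 10000), 158 (cells removed) and 21 (DESeq2), and 0 members (halved), 5 (cells removed), 0 (DESeq2) and 5 (no mitochondrial genes), while Fabp4 became -0.14 and Fabp5 -0.37 (halved) and Lipa -0.04 (doubled). In fibroblasts DESeq2 called 1371 genes for BD 1 and 188 genes with 2 members for stored 10x. Within Efemp1 and Clec3b fibroblasts the counts were 2275 genes for BD 1 and 133 genes with 0 members for stored 10x, and Apoe became -0.74, Abca1 -0.14, Fabp4 -0.33 and Cd36 -0.42 in BD 1 and Gpnmb -0.02 and Abca1 -0.08 in stored 10x. In epithelial cells DESeq2 called 4009 genes for BD 1, and stored 10x gave 127 genes (doubled), 139 (per 10000) and 555 with 1 member (no filter), with Cd36 at -0.01 (halved) and -0.01 (doubled).

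For the differences between class changes, macrophages minus epithelial cells in BD 1 gave 188 genes with 4 members (no filter) and 26 genes (2 minimums kept) against 54 and 1, and in stored 10x 44 genes (no filter) and 7 (doubled) against 2. Endothelial minus epithelial cells in BD 1 gave 126 genes (no filter), 6 with 0 members (2 minimums kept) and 0 members (doubled) against 22 and 1, and in stored 10x 17 genes with 1 member (no filter) and 6 genes (2 minimums kept) against 1 and 0. Of 10 values of the 2 member differences under alternatives, 4 were the same, 2 lost the call and 4 moved. Of 100 values of the shares of macrophages with a UMI (unthinned or thinned to 1000 UMIs), 48 stayed within the counting interval and 52 moved. Few UMIs stand behind Gpnmb, Cd36 and Fabp4 in macrophages, and 8 cells behind the endothelial values of BD 2.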
